A study of Mus musculus with 35 samples.

Results

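The comparison described here is between 2 kinds of mouse embryonic fibroblast (MEF) populations after loss of the endogenous Nelfb gene, those that carried the MT486 form of NELFB and those that carried an empty vector (EV). The 4 libraries were chosen by their labels, 2 for MT486 and 2 for EV, all with Cre, out of 35 libraries in the series. All populations came from immortalized Nelfb flox/- MEFs, which hold a deleted and a floxed Nelfb allele, and were made by lentiviral infection with a pLenti vector and drug selection, so each construct stands for a single selected population. MT486 is flag-tagged mouse NELFB in which a short cluster of residues was changed to alanine, at a surface close to other subunits of its complex. RNA was collected 7 days after infection with an adenovirus carrying Cre recombinase (MT486-Cre and EV-Cre) or with the same kind of virus without it (MT486-GFP and EV-GFP). WT-Cre, a population with wild-type NELFB and Cre, served as a further reference. Replicates 1 and 2 of each group came from experiments 1 and 2, and the libraries of an experiment were treated as a pair. The shift shared by all libraries of an experiment is removed by this pairing. With 2 experiments on 1 population per construct, p-values thus measure how differences between groups vary from experiment to experiment. They do not measure the spread between independently made populations.

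NELFB is a subunit of the negative elongation factor, NELF, which with the factor DSIF holds RNA polymerase II shortly after it has started a transcript. Release from this pause follows phosphorylation by the kinase P-TEFb. Mouse embryos that lack NELFB do not survive. Reads counted on genes numbered 20175394 and 23819233 in MT486-Cre and 21011317 and 22894317 in EV-Cre. The libraries were thus of similar depth. Reads on no annotated gene made up 14.6% and 19.7% of the reads in MT486-Cre and 15.5% and 18.8% in EV-Cre, so this share moved with the experiment more than with the construct.

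Of 10 fibroblast markers fixed for the check of the cell type, 9 had enough reads to be tested. Thy1 had at most 1 read in each of the 4 compared libraries. Col1a1, which encodes the main collagen I chain, stood at 3595 and 6937 CPM (read counts scaled to library size after TMM normalization) in MT486-Cre and at 3154 and 4951 CPM in EV-Cre. The libraries therefore carried collagen RNA as fibroblasts do. S100a4 and Dcn of this list were called higher and lower in MT486-Cre (log2 fold changes 1.46 and −1.22). Summed over the list, fibroblast markers came to 10260 and 17610 CPM in MT486-Cre and 11410 and 16010 CPM in EV-Cre. Epithelial, endothelial and skeletal muscle markers were sparse. The sums in MT486-Cre were 5.69 and 4.26 CPM for epithelial, 1.25 and 1.69 CPM for endothelial and 0.716 and 0.887 CPM for skeletal muscle markers, and in EV-Cre 4.91 and 2.87 CPM, 1.35 and 1.46 CPM, and 0.541 and 0.518 CPM. The macrophage list summed to 239.8 and 286.9 CPM in MT486-Cre and 251.9 and 262.2 CPM in EV-Cre, nearly all of it from Cd14, with Adgre1 at 0 in all 4 libraries and Ptprc at 1 read or none. The neural list summed to 128.7 and 144.7 CPM against 90.8 and 99.0 CPM, most of it from Nes, which encodes an intermediate filament and was called higher (log2 fold change 0.56), and the adipocyte list to 91.3 and 64.8 CPM against 76.23 and 49.96 CPM, most of it from Fabp4. In bulk RNA, a change in the share of cells of a kind and a change in RNA per cell cannot be told apart.

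Nelfb RNA was lowest in EV-Cre. Nelfb (chromosome 2 from 25199712 to 25211489 in GRCm38, on the minus strand) had 2592 and 2884 reads in MT486-Cre and 177 and 116 reads in EV-Cre. This was 116 and 128 CPM against 7.97 and 5.46 CPM, with no overlap, and the log2 fold change was 4.19 with a standard error of 0.19 (adjusted p 2.59e-08, quasi-likelihood test of edgeR, adjusted after Benjamini and Hochberg). Ectopic and endogenous transcripts were counted together. WT-Cre held 75.9 and 60.5 CPM, so MT486-Cre carried more Nelfb RNA than WT-Cre (log2 fold change 0.85, called). The other subunits of the complex differed little. Nelfa had 46.6 and 34.5 CPM in MT486-Cre and 37.7 and 30.4 in EV-Cre (log2 fold change 0.25, adjusted p 0.0667). Nelfcd had 41.9 and 34.5 CPM against 35.0 and 32.8 CPM (0.17, adjusted p 0.297). Nelfe had 39.3 and 29.9 CPM against 28.9 and 23.9 CPM (0.39, adjusted p 0.0167), below the size of change required for a call.

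A gene was called where its adjusted p was below 0.05 and its log2 fold change exceeded 0.5 in size, in a model of the 20 population libraries (5 constructs, each with Ad-Cre and Ad-GFP in both experiments) with the experiment as a block. Of 13805 genes tested between MT486-Cre and EV-Cre, 1236 (8.95%) were called, 662 (4.80%) higher and 574 (4.16%) lower in MT486-Cre. The median log2 fold change was 0.81 among those higher, −0.80 among those lower, and −0.0084 over all genes tested. A difference of over 1 on the log2 scale was found for 243 called genes that were higher and 188 that were lower. The libraries of both groups did not overlap in CPM for 612 of the genes called higher and 490 of those called lower, and for 33.9% of all genes tested. The count rests on the pairing of the libraries by experiment. Without the replicate block, 50 genes were called, all of them among the 1236, and DESeq2 without the block called 410, while DESeq2 with the block called 1251. With the block, the count was 374 without MT486-Cre replicate 1 and 474 without EV-Cre replicate 2.

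**Figure D1:**
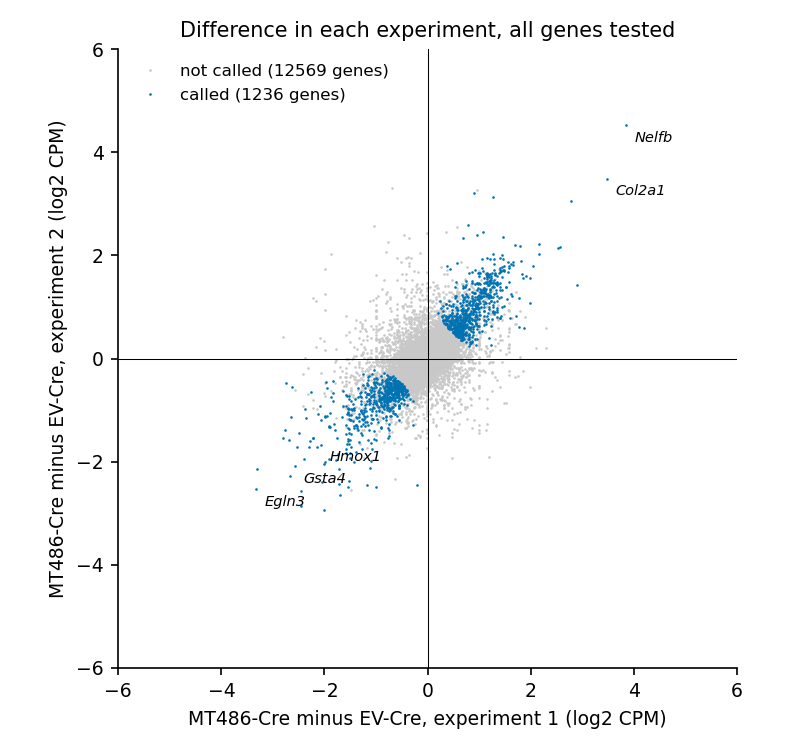
Difference in log2 CPM between MT486-Cre and EV-Cre in experiment 1 (horizontal axis) and experiment 2 (vertical axis) for each of the 13805 genes tested, 1 point per gene. The 1236 called genes (blue) lie in the quadrants where both experiments differ in the same direction, with Nelfb at the far upper right.

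Fewer genes were called between the populations that received no Cre. With Ad-GFP, 22 genes (0.159%) were called between MT486-GFP and EV-GFP, a comparison that shares no library with the one after Cre, and 945 had an unadjusted p under 0.05. Of these 22 genes, 14 (63.6%) were also called in the same direction after Cre, which is 0.604% of the genes called higher and 1.74% of those called lower there. The median log2 difference with Ad-GFP was 0.08 for the genes called higher after Cre and −0.06 for those called lower. The difference between the Ad-Cre and Ad-GFP comparisons was itself called for 370 genes (2.68%), 201 (1.46%) with a higher and 169 (1.22%) with a lower value in MT486 after Cre. DESeq2 called 56 genes with Ad-GFP, and edgeR without the block called 1 gene with Ad-GFP and 1 for the difference of both comparisons. Leaving out single libraries, the count with Ad-GFP was 5 without MT486-GFP replicate 2, 17 without the other MT486-GFP library, and 9 without either EV-GFP library. The count for the difference lay between 52, without MT486-Cre replicate 1, and 306, without EV-Cre replicate 1, and was 63 and 84 without EV-GFP replicate 2 and EV-Cre replicate 2, 222 without EV-GFP replicate 1, and 155 and 167 without MT486-GFP replicates 1 and 2.

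To place these changes, the same libraries were set against 3 references. EV-Cre against EV-GFP gave 3502 called genes (25.4%), MT486-Cre against EV-GFP 1858 (13.5%), and MT486-Cre against WT-Cre 723 (5.24%), of which 376 (2.72%) were higher and 347 (2.51%) lower in MT486-Cre. These comparisons share libraries with each other and with MT486-Cre against EV-Cre, so their values are given side by side and not as separate support. The count against WT-Cre was 239 without MT486-Cre replicate 2 and 245 without WT-Cre replicate 2. A description in which the choice and the measurement share no library used each experiment in turn. In experiment 1, 391 genes that averaged 50 counts or more were lower by over 1 on the log2 scale in EV-Cre than in EV-GFP. In experiment 2, the same genes had a median MT486-Cre minus EV-Cre difference of 0.51, and 89.8% of them were higher in MT486-Cre, against 52.3% of all 11484 genes with that mean count. For WT-Cre minus EV-Cre, the median of these genes in experiment 2 was 1.09. The 364 genes that were higher with Cre in experiment 1 had a median of −0.57 in experiment 2 for MT486-Cre and of −1.13 for WT-Cre. With the experiments exchanged, the medians were 0.54 for the 609 genes lower with Cre (WT-Cre 0.89) and −0.57 for the 450 genes higher with Cre (WT-Cre −0.87). In both directions, the MT486 median lay between 0 and the median of wild-type NELFB.

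**Figure D2:**
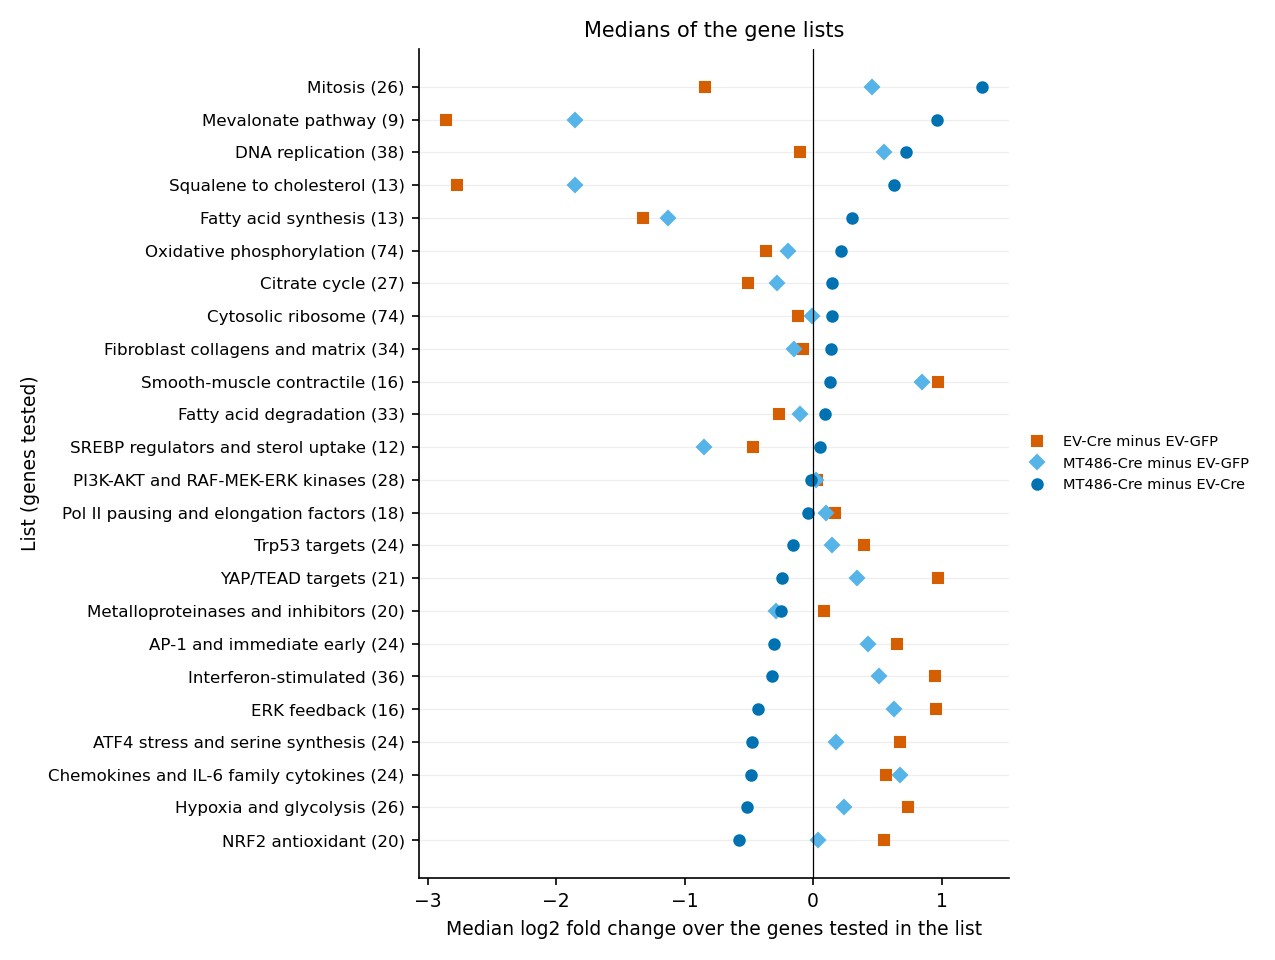
Median log2 fold change over the genes tested in each of 24 gene lists (number tested in brackets) for EV-Cre minus EV-GFP (orange squares), MT486-Cre minus EV-GFP (light blue diamonds) and MT486-Cre minus EV-Cre (dark blue circles), which share libraries. The 2 sterol lists are the lowest with Cre in EV and remain below EV-GFP in MT486-Cre, whereas the mitosis and DNA replication lists lie above EV-GFP in MT486-Cre.

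Most genes of cholesterol synthesis were higher in MT486-Cre than in EV-Cre and lower than with wild-type NELFB. In the mevalonate pathway, which builds isoprenoid units from acetyl-CoA, 7 of 9 genes were called higher and none lower, with a median log2 fold change of 0.96. In the steps from squalene to cholesterol, 10 of 13 were called higher and none lower, with a median of 0.63. Over all genes tested, 4.80% were called higher and 4.16% lower. The medians of the same lists were −2.85 and −2.77 for EV-Cre against EV-GFP, −1.85 and −1.86 for MT486-Cre against EV-GFP, and −1.35 and −1.31 for MT486-Cre against WT-Cre. In the last comparison 8 of 9 and 11 of 13 genes were called lower in MT486-Cre, against 2.51% of all genes tested. With Ad-GFP the medians of MT486 against EV were −0.17 and −0.22, and no gene of either list was called. The difference between the Ad-Cre and Ad-GFP comparisons was called for 5 and 8 genes, all higher after Cre, against 1.46% of all genes tested.

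Hmgcs1 encodes the HMG-CoA synthase, an early enzyme of the pathway. It stood at 562 and 457 CPM in EV-GFP, 57.8 and 38.3 CPM in EV-Cre, 140 and 87.9 CPM in MT486-Cre and 352 and 295 CPM in WT-Cre. The values of MT486-Cre lay above both EV-Cre libraries and below both WT-Cre libraries (log2 fold change against EV-Cre 1.24, standard error 0.18, adjusted p 0.000742). Mvk and Mvd, the mevalonate kinase and decarboxylase, and Fdps, which makes farnesyl pyrophosphate, followed the same order. Mvk had 30.7 and 19.96 CPM in MT486-Cre and 13.4 and 10.2 CPM in EV-Cre (log2 fold change 1.10), Mvd 20.4 and 11.7 CPM against 8.60 and 7.53 CPM (0.96), and Fdps 28.8 and 16.9 CPM against 8.33 and 7.49 CPM (1.504). The members not called were Ggps1, which leads from farnesyl to geranylgeranyl pyrophosphate (−0.21), and Idi1, with under 2 CPM in these 4 libraries (1.79, adjusted p 0.11).

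The later steps showed the same order. The sterol demethylase Cyp51 had 87.1 and 85.2 CPM against 31.1 and 42.0 CPM (1.25), the squalene synthase Fdft1 57.9 and 35.1 CPM against 22.7 and 17.7 CPM (1.18), and the methylsterol oxidase Msmo1 118 and 120 CPM against 49.9 and 55.2 CPM (1.18). All 3 were called lower in MT486-Cre than in WT-Cre, with log2 fold changes of −1.52 for Cyp51, −1.31 for Fdft1 and −1.51 for Msmo1. Lbr, Sc5d and Dhcr7 were not called against EV-Cre (0.44, 0.46 and 0.10).

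**Figure D3:**
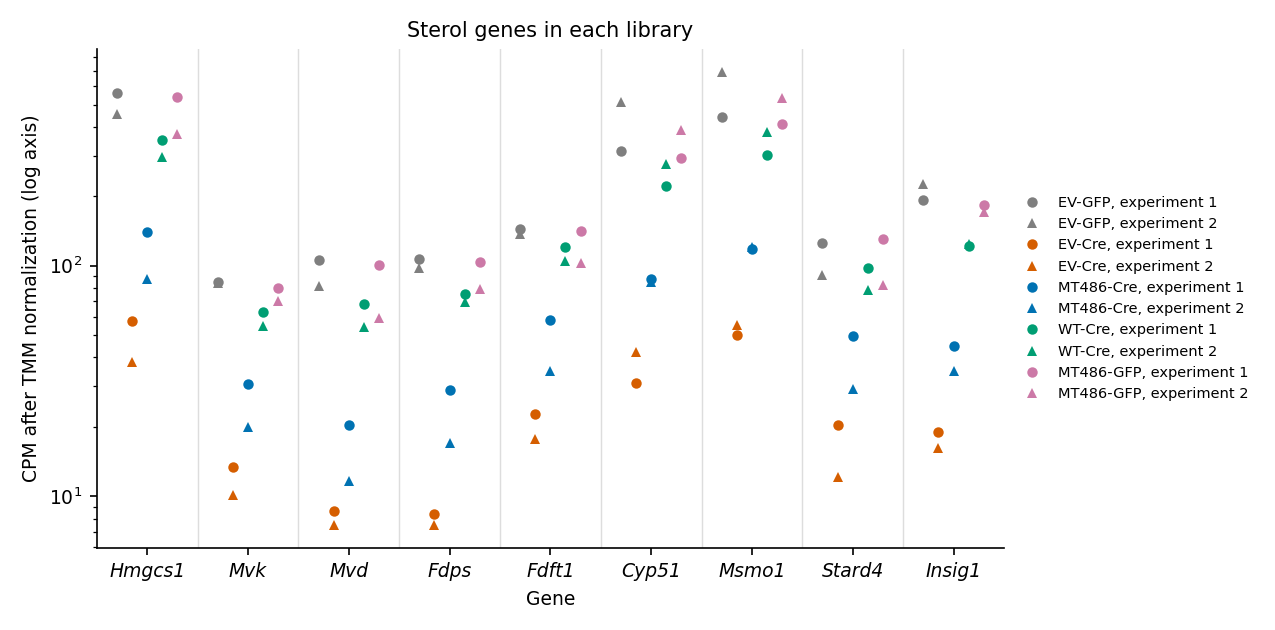
CPM of 9 sterol genes in each library on a log axis, with circles for experiment 1 and triangles for experiment 2 and colours for the 5 groups. For each gene both MT486-Cre libraries lie above both EV-Cre libraries and below all EV-GFP, WT-Cre and MT486-GFP libraries, as for Hmgcs1 with 140 and 87.9 CPM in MT486-Cre, 57.8 and 38.3 CPM in EV-Cre and 352 and 295 CPM in WT-Cre.

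Among regulators of SREBP, the transcription factor of sterol genes, and genes of sterol uptake, 5 of 12 were called higher and 1 lower (median 0.05). The shares over all genes tested were 4.80% higher and 4.16% lower. Stard4, a sterol carrier, had 49.6 and 29.2 CPM against 20.3 and 12.1 CPM (1.27), and Insig1, which retains SREBP in the endoplasmic reticulum, 44.8 and 35.0 CPM against 19.1 and 16.2 CPM (1.18). Srebf2, which encodes the SREBP form of sterol genes, rose from 131 and 151 CPM to 260 and 297 CPM (0.98), while Srebf1 (0.11) and Scap (−0.0065) were not called. Npc2, which moves cholesterol out of lysosomes, was the member called lower (−0.56). This call was lost whichever of the 4 libraries was left out.

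In fatty acid synthesis, 5 of 13 genes were called higher and none lower (median 0.31, against −1.33 for EV-Cre minus EV-GFP). The share called higher over all genes tested was 4.80%. Elovl6, a fatty acid elongase, had 111 and 123 CPM in MT486-Cre and 56.3 and 62.7 CPM in EV-Cre (0.98). The desaturases followed, with 99.9 and 105 CPM against 53.4 and 62.6 CPM for Scd1 (0.83), 775 and 907 CPM against 441 and 658 CPM for Scd2 (0.64), and 76.8 and 85.2 CPM against 48.3 and 65.0 CPM for Fads2 (0.53). Scd1, Scd2 and other desaturases are similar in sequence, so reads between them could have been split or left out. Fasn, the synthase, was not called (0.31), and all 4 desaturase and elongase genes named here stayed lower than in WT-Cre, from −1.502 for Scd2 to −0.89 for Fads2.

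The number of sterol calls varied with the libraries and fell without the block. Without MT486-Cre replicate 1, 3 mevalonate genes, 3 genes of the later steps and 2 of fatty acid synthesis were called. Without EV-Cre replicate 1 the first 2 counts were 4 and 6, and without EV-Cre replicate 2 and MT486-Cre replicate 2 they were 5 and 7, and 7 and 11. Without the replicate block, 0 mevalonate genes and 2 genes of the later steps were called, and by DESeq2 with the block 8 and 10.

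The promoter of Hmgcs1 is shown because it holds both letters looked for in the sterol lists, the core CACCCCAC of a sterol regulatory element and CCAAT boxes, which bind NF-Y. Promoter windows were those of RefSeq (GRCm38.p6) from 250 bases before to 50 bases after each annotated start, and both strands were searched. The stretch before the start, chr13:119690101-119690330 on the plus strand, reads as follows, with the sterol core and 3 CCAAT boxes (ATTGG on this strand) in capitals.
Hmgcs1: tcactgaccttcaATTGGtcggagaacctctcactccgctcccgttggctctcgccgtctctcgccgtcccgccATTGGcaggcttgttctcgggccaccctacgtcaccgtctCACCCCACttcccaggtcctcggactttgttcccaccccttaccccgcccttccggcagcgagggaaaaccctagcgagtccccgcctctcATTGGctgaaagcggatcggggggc
The core stood in 2 of 7 mevalonate genes with a window (Hmgcs1 and Acat2), in 0 of 10 genes of the later steps and in 0 of 9 of the regulator and uptake list, and in 3.30% of 27025 genes with a window. CCAAT stood in 6 of 7 and 10 of 10 genes of the first 2 lists and in 41.1% of all genes. A match describes the letters in the window and is not evidence of binding.

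Most genes of mitosis and many of DNA replication were called higher in MT486-Cre, though not without EV-Cre replicate 2 or without MT486-Cre replicate 1. Of 26 genes of mitosis, 24 were called higher and none lower, with a median log2 fold change of 1.32. Of 38 genes of DNA replication, 21 were called higher and none lower, with a median of 0.72. The share called higher over all genes tested was 4.80%. For EV-Cre against EV-GFP the medians were −0.84 and −0.10, for MT486-Cre against EV-GFP 0.46 and 0.55, and for MT486-Cre against WT-Cre −0.04 and 0.09. Against EV-GFP, 7 and 2 genes of the lists were called lower in EV-Cre and none higher. In MT486-Cre, 0 and 14 were called higher than in EV-GFP and none lower. Over all 13805 genes tested, 1793 were called lower in EV-Cre and 826 higher in MT486-Cre. Between MT486-Cre and WT-Cre no gene of either list was called by edgeR. With Ad-GFP the medians of MT486 against EV were 0.06 and 0.10. The difference between the Ad-Cre and Ad-GFP comparisons had medians of 1.28 and 0.62, and no gene of either list was called for it.

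Bub1b (chromosome 2 from 118598211 to 118641591), a kinase of the spindle checkpoint, had 115 and 83.7 CPM in MT486-Cre, 40.9 and 25.7 CPM in EV-Cre, 66.2 and 97.4 CPM in EV-GFP and 106 and 118 CPM in WT-Cre. MT486-Cre and EV-Cre did not overlap (log2 fold change 1.58, standard error 0.37, adjusted p 0.0177), while MT486-Cre lay on either side of an EV-GFP library. Ccnb1, the B-type cyclin that drives entry into mitosis, had 32.4 and 20.1 CPM against 11.5 and 6.03 CPM (1.58), Cenpa, the histone variant of centromeres, 71.1 and 46.8 CPM against 26.2 and 13.5 CPM (1.58), and Cenpf, a kinetochore protein, 89.3 and 75.7 CPM against 33.7 and 22.5 CPM (1.55). Aspm, a spindle pole protein outside the list, had 64.1 and 56.1 CPM against 20.2 and 15.9 CPM (1.73), and Depdc1b, also known from dividing cells, 9.94 and 6.16 CPM against 3.56 and 1.13 CPM (1.79). The members of the mitosis list not called were Bub1 (1.24, adjusted p 0.0529) and Mki67 (1.18, adjusted p 0.0621), although both were higher in both experiments. In DNA replication, the polymerase subunits Pole and Pola2 had 68.1 and 62.1 CPM against 34.6 and 29.8 CPM (1.02) and 54.5 and 42.8 CPM against 25.6 and 24.0 CPM (0.97). Gins2 and Cdc45, parts of the replicative helicase, had 37.0 and 23.4 CPM against 19.4 and 11.3 CPM (0.98) and 26.1 and 19.0 CPM against 12.9 and 10.1 CPM (0.96). Against EV-GFP, Gins2 and Cdc45 were called higher in MT486-Cre (0.88 and 0.83), and Pole and Pola2 were not called (0.67 and 0.57). Against EV-Cre, Pcna (0.14, adjusted p 0.557) and Mcm6 (0.44, adjusted p 0.125) were among the 17 members not called.

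These calls depended on single libraries. Without EV-Cre replicate 2 or without MT486-Cre replicate 1, 0 genes of mitosis and 0 of DNA replication were called, whereas without EV-Cre replicate 1 there were 16 and 10 and without MT486-Cre replicate 2 15 and 16. Without the replicate block 0 were called in either list, and by DESeq2 with the block 26 and 27. The medians were taken without the block, with DESeq2's size factors, for members of at least 10 CPM and with 1 library left out. They lay between 1.00 and 1.73 and between 0.60 and 0.90. In the main fit, all 26 and all 38 log2 fold changes were positive.

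**Figure D4:**
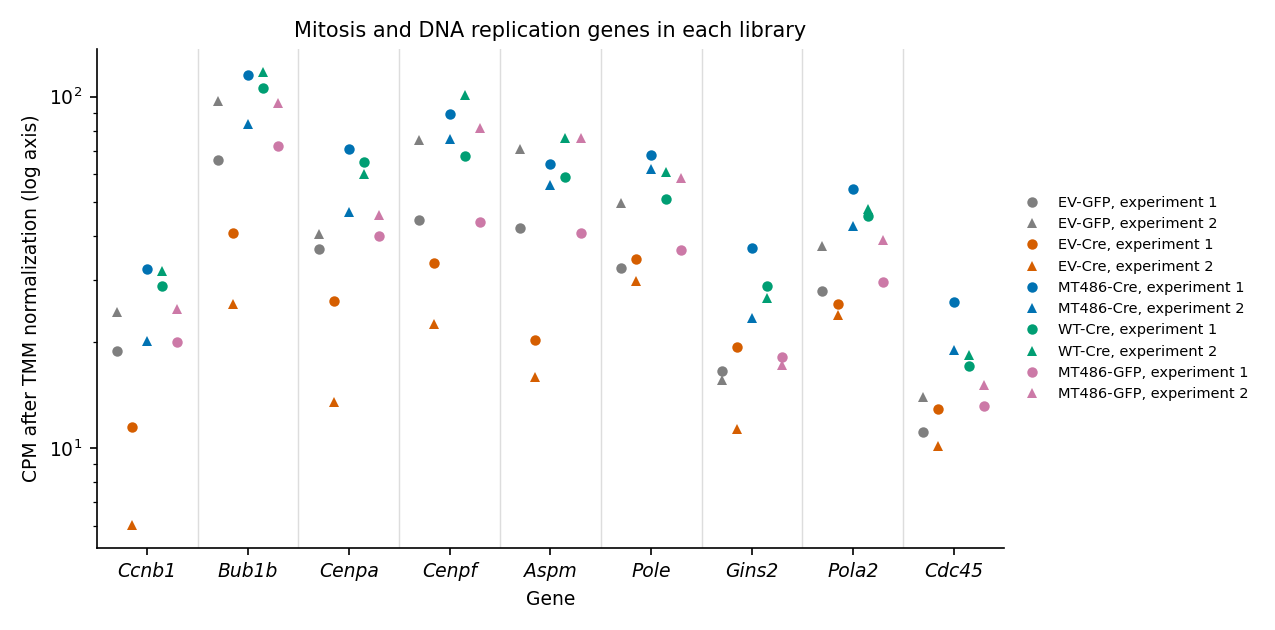
CPM of 5 mitotic genes (Ccnb1, Bub1b, Cenpa, Cenpf, Aspm) and 4 genes of DNA replication (Pole, Gins2, Pola2, Cdc45) in each library on a log axis, with circles for experiment 1 and triangles for experiment 2. Both EV-Cre libraries lie below both MT486-Cre libraries for each gene, as for Bub1b with 40.9 and 25.7 against 115 and 83.7 CPM, and MT486-Cre and WT-Cre lie close together.

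Promoters of mitotic genes often hold the cell cycle element TTTGAA close to the start together with CCAAT boxes, and 3 short examples from called genes show both, with both kinds of letters in capitals (TTCAAA and ATTGG are the other strand). They lie before the annotated starts at chr4:118437344-118437416 on the minus strand for Cdc20, an activator of the anaphase ligase (log2 fold change 1.39), chr19:37376317-37376381 on the plus strand for Kif11, a spindle motor (1.39), and chr7:80294394-80294471 on the plus strand for Prc1, which bundles spindle microtubules (1.13).
Cdc20: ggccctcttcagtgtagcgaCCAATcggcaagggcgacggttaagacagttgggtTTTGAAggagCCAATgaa
Kif11: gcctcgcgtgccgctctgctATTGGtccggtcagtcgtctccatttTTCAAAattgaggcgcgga
Prc1: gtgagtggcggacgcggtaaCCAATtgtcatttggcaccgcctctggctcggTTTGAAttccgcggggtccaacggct
TTTGAA stood in 16 of 21 mitosis genes with a window and in 20.2% of all genes, and CCAAT in 19 of 21. The search for TTTGAA was added after the values had been seen.

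Many antioxidant, ATF4 and hypoxia genes were lower in MT486-Cre than in EV-Cre. Of 20 targets of NRF2, the factor of the oxidative stress response, 11 were called lower and none higher (median −0.58). Of 24 genes of the ATF4 stress response and serine synthesis, 10 were called lower and none higher (−0.48). For 26 genes of hypoxia and glycolysis these were 12 and none (−0.52). The share called lower over all genes tested was 4.16%. The medians for EV-Cre against EV-GFP were 0.55, 0.67 and 0.74, for MT486-Cre against EV-GFP 0.04, 0.18 and 0.24, and for MT486-Cre against WT-Cre −0.16, −0.15 and 0.01. Against EV-GFP, 2, 5 and 4 genes of the 3 lists were called higher in MT486-Cre and 0, 1 and 1 lower. In that comparison, 826 of all 13805 genes tested were called higher and 1032 lower. Against WT-Cre, 1 gene of the NRF2 list was called higher, 2 of the ATF4 list were higher and 1 lower, and 2 of the hypoxia list were higher. Over all genes tested these shares were 2.72% higher and 2.51% lower. The difference between the Ad-Cre and Ad-GFP comparisons was called for 7, 5 and 6 genes of the 3 lists, all lower after Cre. The share over all genes tested was 1.22%.

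Hmox1 (chromosome 8 from 75093621 to 75100589), the heme oxygenase, had 197 and 139 CPM in EV-GFP, 718 and 458 CPM in EV-Cre, 171 and 144 CPM in MT486-Cre and 172 and 129 CPM in WT-Cre. Its values in MT486-Cre overlapped those of EV-GFP and WT-Cre, and were far below those of EV-Cre (log2 fold change −1.88, standard error 0.19, adjusted p 8.81e-05). Gsta4 (chromosome 9 from 78182774 to 78209349), a glutathione transferase for lipid peroxidation products, had 11.0 and 9.93 CPM in MT486-Cre and 65.3 and 42.5 CPM in EV-Cre (−2.35, standard error 0.23, adjusted p 4.81e-05). It belongs to a family of similar genes. Srxn1, which repairs peroxiredoxins, had 73.5 and 51.4 CPM against 173 and 111 CPM (−1.17). Slc7a11, the cystine transporter, which counts in both the NRF2 and the ATF4 list, had 9.76 and 21.8 CPM against 46.1 and 63.9 CPM (−1.85). It stayed called above EV-GFP (1.42) and WT-Cre (1.26), which had 4.77 and 6.63 CPM and 6.001 and 6.49 CPM. In the ATF4 list, the pseudokinase gene Trib3 had 13.7 and 13.2 CPM in MT486-Cre and 36.3 and 46.9 CPM in EV-Cre (−1.64). The stress-induced factor Atf3 had 17.4 and 12.8 CPM against 37.8 and 22.5 CPM (−0.97) and was called above EV-GFP (1.15) and WT-Cre (0.57), and Sesn2, a leucine sensor and inhibitor of mTORC1, 16.0 and 17.2 CPM against 31.5 and 32.3 CPM (−0.94). Atf4 itself was not called (−0.49), nor were Phgdh and Psat1 of serine synthesis (0.25 and 0.06).

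Among genes that averaged 50 counts or more and did not overlap, Egln3 (chromosome 12 from 54178981 to 54203860), a prolyl hydroxylase that is itself induced by hypoxia, fell most. It had 10 and 14 reads in MT486-Cre and 118 and 86 reads in EV-Cre, which is 0.448 and 0.621 CPM against 5.32 and 4.05 CPM (log2 fold change −3.11, standard error 0.36, adjusted p 6.38e-05). EV-GFP stood at 0.836 and 0.439 CPM and MT486-GFP at 0.247 and 0.171 CPM (−1.57 with Ad-GFP, adjusted p 0.633). The difference between the Ad-Cre and Ad-GFP comparisons was −1.53 for Egln3 and was not called (adjusted p 0.326). Vegfa, the angiogenic growth factor, had 241 and 451 CPM in MT486-Cre, 607 and 987 CPM in EV-Cre and 290 and 436 CPM in EV-GFP (−1.23, adjusted p 3.49e-05). The vasodilator peptide gene Adm had 13.3 and 23.5 CPM against 38.3 and 64.4 CPM (−1.49), and Ankrd37 2.46 and 3.24 CPM against 6.13 and 8.99 CPM (−1.40). Ankrd37 was called above EV-GFP (0.80) and WT-Cre (1.06). Ero1l, an oxidase of the endoplasmic reticulum outside these lists, had 57.0 and 98.8 CPM against 214 and 383 CPM (−1.93). The glucose transporter Slc2a1 was called lower (−1.20), whereas most enzymes of glycolysis were not called, among them Ldha (−0.28) and Pkm (−0.27), and only Pfkm of the 26 had a positive value (0.31). Leaving out any 1 of the 4 libraries, 9 to 12 NRF2, 6 to 10 ATF4 and 9 to 11 hypoxia genes were called, all lower, with the 6 of the ATF4 list found without MT486-Cre replicate 1. Without the replicate block 3, 1 and 1 were called.

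**Figure D5:**
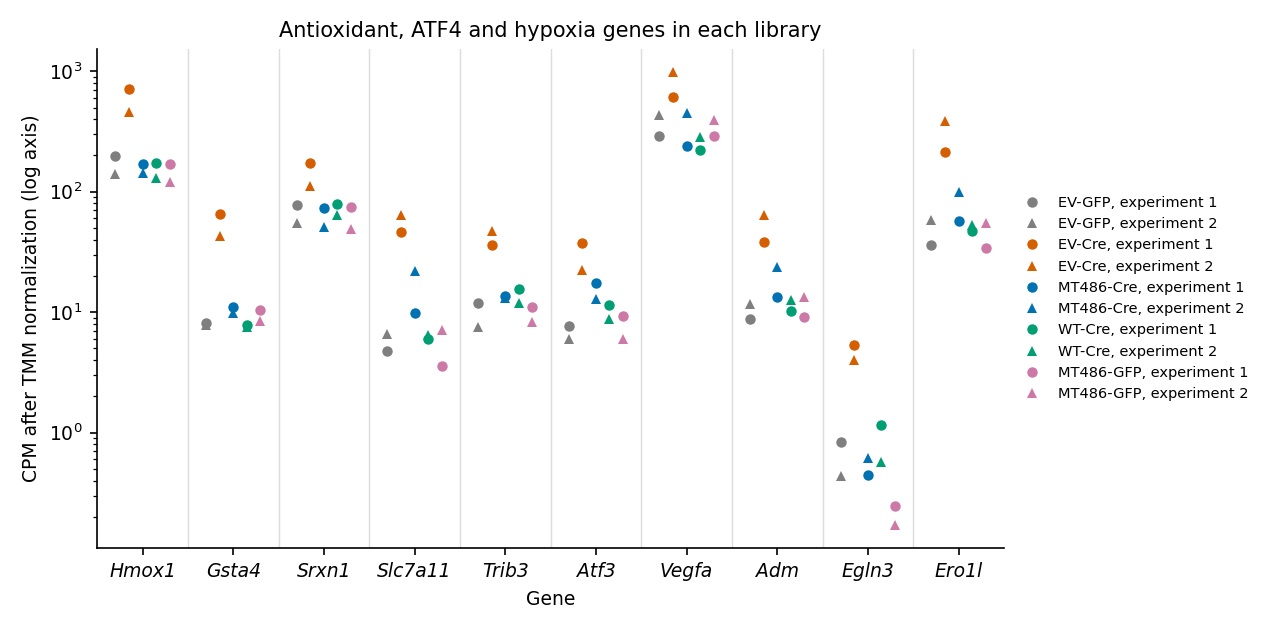
CPM of 10 antioxidant, ATF4 and hypoxia genes in each library on a log axis, with circles for experiment 1 and triangles for experiment 2. Both EV-Cre libraries lie above all others for each gene, as for Hmox1 with 718 and 458 CPM against 171 and 144 CPM in MT486-Cre, and Slc7a11 and Atf3 in MT486-Cre lie above EV-GFP and WT-Cre.

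The short stretches below, from called genes of the hypoxia and NRF2 lists, show the letters searched in these lists, the core ACGTG of the hypoxia response element (CACGT on the other strand) and the antioxidant element TGACNNNGC, in capitals. The stretches before the starts lie at chr4:119108689-119108733 on the plus strand for Slc2a1, chr7:138909589-138909634 on the minus strand for the mitophagy receptor gene Bnip3 (log2 fold change −1.12), chr4:43506988-43507025 on the plus strand for the carbonic anhydrase gene Car9 (−1.17), chr10:82859094-82859142 on the plus strand for the thioredoxin reductase gene Txnrd1 (−0.89), and chr3:122245403-122245451 on the plus strand for Gclm, a subunit of the enzyme that starts glutathione synthesis (−0.75).
Slc2a1: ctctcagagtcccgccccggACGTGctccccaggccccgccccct
Bnip3: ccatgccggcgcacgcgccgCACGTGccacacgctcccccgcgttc
Car9: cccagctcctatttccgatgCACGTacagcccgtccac
Txnrd1: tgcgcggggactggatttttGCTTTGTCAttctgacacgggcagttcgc
Gclm: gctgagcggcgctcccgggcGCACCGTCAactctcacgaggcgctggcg
ACGTG stood in 20 of 27 hypoxia genes with a window and in 21.8% of all genes, and TGACNNNGC in 7 of 15 NRF2 genes and in 14.0% of all genes. Both searches were added after the values had been seen. In Bnip3 the core occurs on both strands within the same letters.

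Other groups that were higher in EV-Cre than in EV-GFP were reduced in part or not at all. Interferon-stimulated genes had 6 of 36 members called lower and none higher in MT486-Cre (median −0.32, against 0.95 for EV-Cre minus EV-GFP). The shares over all genes tested were 4.16% lower and 4.80% higher. Ifit3, an antiviral effector, had 37.0 and 25.1 CPM in MT486-Cre and 69.3 and 63.3 CPM in EV-Cre (−1.13), Rsad2, which encodes viperin, 13.9 and 13.0 CPM against 23.4 and 34.3 CPM (−1.08), Irf7, a factor of the interferon response, 34.3 and 27.7 CPM against 56.8 and 54.9 CPM (−0.86), and Ifi27 89.3 and 105 CPM against 151 and 154 CPM (−0.65). With Ad-GFP the median of this list was −0.59, with 1 of 36 called, Oas1g, against 0.159% of all genes tested. The difference between the Ad-Cre and Ad-GFP comparisons had a median of 0.25 with 0 members called. Ifit3, for instance, had 14.1 and 6.09 CPM in MT486-GFP and 28.6 and 13.7 CPM in EV-GFP. Without EV-Cre replicate 2 or without MT486-Cre replicate 1, 1 member was called, and without MT486-Cre replicate 2 there were 2.

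Smooth-muscle contractile genes stayed high in MT486-Cre. Of 16 members, 2 were called higher in MT486-Cre than in EV-Cre and none lower (median 0.13), against 4.80% of all genes tested called higher. The medians were 0.98 for EV-Cre and 0.85 for MT486-Cre against EV-GFP. Called higher than in WT-Cre were 10 of 16, against 2.72% of all genes tested. Cnn1, the calponin of smooth muscle, had 1.97 and 1.85 CPM in EV-GFP, 11.0 and 7.53 CPM in EV-Cre, 15.6 and 15.9 CPM in MT486-Cre and 5.63 and 7.16 CPM in WT-Cre. It was thus highest in MT486-Cre (log2 fold change against EV-Cre 0.77, against WT-Cre 1.30, both called). Actg2, the enteric smooth-muscle actin, had 3.94 and 4.97 CPM in MT486-Cre and 2.30 and 2.59 CPM in EV-Cre (0.87), and reads of the actin genes are hard to assign because the genes are alike. Without EV-Cre replicate 2 or without MT486-Cre replicate 2, 0 genes of the list were called, and without EV-Cre replicate 1 there was 1. The CArG box, which binds SRF, stood in 3 of 15 genes of the list with a window (Cnn2, Myl9 and Vcl) and in 1.81% of all genes.

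For targets of YAP and TEAD, 4 of 21 were called lower and 1 higher (median −0.24, and 0.97 for EV-Cre against EV-GFP). Over all genes tested, 4.16% were called lower and 4.80% higher, so the single call higher is near the share of all genes. Gadd45b, a stress gene, fell from 77.3 and 82.9 CPM in EV-Cre to 48.2 and 48.5 CPM in MT486-Cre (−0.73, adjusted p 0.000111), Wwc1, an upstream member of the Hippo pathway, from 36.1 and 41.8 CPM to 25.2 and 23.0 CPM (−0.70), and Amotl2, an angiomotin, from 1100 and 1283 CPM to 754 and 895 CPM (−0.53). Foxf2, a forkhead factor, was the member called higher (0.57). Without EV-Cre replicate 2 or without MT486-Cre replicate 1, 0 of these targets were called higher and 1 lower. Feedback genes of ERK signaling had 2 of 16 members called lower (median −0.43). Dusp4, a phosphatase of ERK, had 11.4 and 10.3 CPM in MT486-Cre and 31.2 and 24.0 CPM in EV-Cre (−1.34), and Dusp5 2.55 and 1.69 CPM against 4.82 and 2.92 CPM (−0.86). The list had 1 call without EV-Cre replicate 1 or either MT486-Cre library. Among AP-1 and immediate early genes, 6 of 24 were called lower (median −0.30). Fosb fell from 14.7 and 11.3 CPM to 4.97 and 3.64 CPM (−1.60), Maff from 85.6 and 66.0 CPM to 37.7 and 37.1 CPM (−1.01) and Fosl1 from 12.9 and 7.44 CPM to 6.13 and 4.44 CPM (−0.93). Both of these last lists remained above EV-GFP in MT486-Cre, with medians of 0.63 and 0.43. Called higher than in WT-Cre were 3 of 16 and 7 of 24 genes, against 2.72% of all genes tested.

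Of 24 targets of Trp53, 4 were called lower and 1 higher (median −0.15), against 4.16% and 4.80% of all genes tested, and 7 of the 24 had a positive value. The kinase gene Plk2 had 125 and 128 CPM in MT486-Cre, 273 and 237 CPM in EV-Cre and 61.2 and 52.5 CPM in EV-GFP (−1.01, adjusted p 1.71e-05). Cdkn1a, an inhibitor of cyclin-dependent kinases, had 38.0 and 27.5 CPM in MT486-Cre, 78.8 and 50.7 CPM in EV-Cre and 15.3 and 12.1 CPM in EV-GFP (−0.97, adjusted p 0.0176). Both genes thus lay between EV-GFP and EV-Cre, without overlap. Bbc3, a proapoptotic BCL2 family gene, was higher in MT486-Cre (0.71). Without MT486-Cre replicate 1, 0 genes of the list were called higher and 1 lower, and without either EV-Cre library 0 were called higher. Chemokines and cytokines of the IL-6 family had 5 of 24 members called lower and 2 higher (median −0.49). The cytokine Il6 had 87.4 and 108 CPM against 180 and 285 CPM (−1.23), the macrophage growth factor Csf1 629 and 1168 CPM against 1079 and 2067 CPM (−0.80) and the neutrophil chemokine Cxcl5 a log2 fold change of −0.70, while the T-cell chemokine Ccl5 rose from 28.5 and 19.8 CPM to 47.5 and 36.1 CPM (0.80). The counts higher and lower were 3 and 3 without EV-Cre replicate 1, 1 and 2 without EV-Cre replicate 2, 2 and 1 without MT486-Cre replicate 1, and 1 and 4 without MT486-Cre replicate 2. Against EV-GFP, the medians of the cytokine list were 0.57 for EV-Cre and 0.68 for MT486-Cre. Of 24 members, 11 were called higher and 2 lower in MT486-Cre than in EV-GFP, against 826 and 1032 of 13805 genes tested. Called higher than in WT-Cre were 6, against 2.72% of all genes tested, and none were lower. Il6 and Csf1 stayed called above EV-GFP (0.90 and 0.94) and WT-Cre (1.00 and 0.79). Of the macrophage list, Cd68 and Csf1r were also called lower than in EV-Cre (−0.61 and −1.01), at under 6 CPM. The other members tested were not called, Lyz2 at −0.23 and Cd14, the most abundant, at 0.05. Whether cells of that kind bear on the cytokine values was not tested.

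Of 34 collagens and matrix genes, 5 were called higher and 1 lower (median 0.14), against 4.80% and 4.16% of all genes tested. Fbln1, a matrix glycoprotein, had 248 and 389 CPM in MT486-Cre, 132 and 177 CPM in EV-Cre and 283 and 433 CPM in EV-GFP (1.02, adjusted p 3.49e-05). Col11a1, a fibrillar collagen, had 91.6 and 152 CPM against 52.1 and 71.3 CPM (0.95), and Thbs2, a thrombospondin, 308 and 454 CPM against 167 and 248 CPM (0.88). Dcn, the proteoglycan decorin, fell from 3283 and 4841 CPM to 1195 and 2415 CPM (−1.22). The inhibitor gene Timp3 had 445 and 731 CPM in MT486-Cre, 977 and 1916 CPM in EV-Cre and 149 and 238 CPM in EV-GFP (−1.27). It stayed called above EV-GFP (1.60). The aggrecanase gene Adamts5 had 361 and 664 CPM against 843 and 1459 CPM (−1.18). In EV-GFP it had 280 and 358 CPM, and MT486-Cre was not called against these (0.63). Of 20 metalloproteinases and inhibitors, these were the 2 called lower than in EV-Cre, and none was called higher (median −0.25). Without MT486-Cre replicate 1, 0 of these were called, and without any other of the 4 libraries 1 was. Dcn was not called without either EV-Cre library or without MT486-Cre replicate 1 (adjusted p from 0.0563 to 0.139).

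In the mitochondrial and ribosomal lists, the shares called were near or below those of all genes tested, 4.80% higher and 4.16% lower. In oxidative phosphorylation, 4 of 74 genes were called higher and none lower (median 0.21), namely the complex I genes Ndufa2 (0.63), Ndufb11 (0.59) and Ndufa4, now assigned to complex IV (0.52), and the ATP synthase gene Atp5o (0.63). In all, 69 of the 74 had a positive value. The medians were −0.36 for EV-Cre and −0.19 for MT486-Cre against EV-GFP, with 24 and 1 genes called lower. Over all 13805 genes tested, 1793 and 1032 were called lower in these 2 comparisons. The difference between the Ad-Cre and Ad-GFP comparisons was called for 6 genes of this list, all higher after Cre, against 1.46% of all genes tested. Without MT486-Cre replicate 1, 2 genes were called between MT486-Cre and EV-Cre, and without MT486-Cre replicate 2 there were 6. In the citrate cycle 1 of 27 was called, Idh1, with 85.9 and 61.3 CPM against 62.3 and 30.4 CPM, which overlap (0.71). In fatty acid degradation 1 of 33 was called, the acyl-CoA synthetase gene Acsl5 (0.55). The list medians were 0.15 and 0.09. Against EV-GFP, 14 of 27 citrate cycle genes were called lower in EV-Cre (median −0.50) and 5 in MT486-Cre (median −0.28), and none higher. For fatty acid degradation these were 7 and 5 of 33 (−0.26 and −0.10), with 1 called higher in each. The difference between the Ad-Cre and Ad-GFP comparisons was called for 3 and 0 genes of the 2 lists, all higher after Cre. Over the alternatives run, the log2 fold change ranged from 0.44 to 1.03 for Idh1 and from 0.39 to 0.70 for Acsl5. Of 74 cytosolic ribosome genes, Rpl39 (0.56), Rplp0 (0.52) and Rpl23 (0.52) were called higher and Rpl28 (−0.77) lower (median 0.14). Ribosomal protein genes have many pseudogene copies, so their counts are uncertain. The number called higher was 0 without MT486-Cre replicate 1, 2 and 5 without EV-Cre replicates 1 and 2, and 6 without MT486-Cre replicate 2, and 0 were called lower in these fits. Of 28 kinase genes of the PI3K-AKT and RAF-MEK-ERK pathways, 1 was called, Map2k1, which encodes MEK1 (−0.62, adjusted p 0.000603). It had 129 and 101 CPM in MT486-Cre, 203 and 151 CPM in EV-Cre and 104 and 75.8 CPM in EV-GFP. More members of this list were called when EV-Cre replicate 1 was left out. Of 18 factors of Pol II pausing and elongation, 1 was called, Larp7, which holds the 7SK RNA particle that keeps P-TEFb inactive (0.56). Its log2 fold change ranged from 0.46 to 0.69 over the alternatives run, in part below the size required for a call. The medians of the last 2 lists were −0.01 and −0.04, and a single call in each is near the share of all genes called (4.16% lower, 4.80% higher).

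The largest changes outside the lists named so far included genes of several kinds. Col2a1, the cartilage collagen, had 17.1 and 28.5 CPM in MT486-Cre and 1.44 and 2.45 CPM in EV-Cre (log2 fold change 3.55, standard error 0.31, adjusted p 3.31e-05). It was already higher in MT486-GFP, with 12.8 and 33.0 CPM against 3.00 and 7.80 CPM in EV-GFP (2.06, adjusted p 0.00616). Stk32b, a kinase gene, had 4.34 and 3.42 CPM in MT486-Cre and 0.901 and 0.659 CPM in EV-Cre (2.31), Nrp2, a receptor for semaphorins and VEGF, 37.7 and 35.8 CPM against 9.06 and 10.3 CPM (1.95), and Fmo1, a flavin monooxygenase, 4.21 and 4.66 CPM against 1.53 and 1.13 CPM (1.73). Nrp2 reached the level of WT-Cre, where it had 31.9 and 44.6 CPM, whereas Stk32b and Fmo1 stayed below it (−0.67 and −1.68, both called). Grem1, an antagonist of BMP, had 26.5 and 29.5 CPM against 7.25 and 9.89 CPM (1.73).

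Among decreases, the orphan receptor gene Gpr35 had 1.03 and 1.33 CPM in MT486-Cre, 4.37 and 5.65 CPM in EV-Cre and 0.166 and 0.143 CPM in WT-Cre, and so lay between them (−2.09 against EV-Cre). Il13ra2, a decoy receptor for interleukin 13, had 16.1 and 32.1 CPM against 79.7 and 105 CPM (−2.00), Vnn3, of the vanin family, 32.9 and 63.5 CPM against 132 and 263 CPM (−2.03), and Pou3f1, a POU transcription factor, 1.92 and 1.73 CPM against 6.76 and 5.18 CPM (−1.70). Klhl13, an adaptor of a ubiquitin ligase, was lower in MT486 with either virus, with 1.70 and 1.46 CPM in MT486-Cre, 6.98 and 3.30 CPM in EV-Cre, 1.73 and 1.37 CPM in MT486-GFP and 9.69 and 7.07 CPM in EV-GFP. Its log2 fold change was −1.67 with Cre and −2.43 with Ad-GFP, both called, and the difference of these was not (adjusted p 0.306). Of the 86 called genes that the fixed rule chose and that are reported here, 36 stayed called whichever of the 4 libraries was left out, 83 by DESeq2 with the block and 11 in edgeR without it. The calls of Vnn3, Rpl28, Pole, Actg2, Adamts5, Cxcl5, Dusp5 and Fosb were lost whichever library was left out.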

How the data were processed

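Poly(A) RNA of the MEF populations (20 libraries) was sequenced as 50 bp single reads. Per the labels and the study's methods, the authors used Bowtie2 for alignment to mm10 (an unspliced aligner, so that junction reads are lost), skipped alignments with a mapping quality under 30 and counted reads on genes with HTSeq. The deposited values are these raw counts of 24421 genes, not normalized. Tool versions and the use of strand in counting are not given in the sources used here, so overlapping antisense genes cannot be told apart. The 15 clone libraries were not used. Totals on genes ranged from 17969149 to 29080007.

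Genes were kept by filterByExpr (13805 tested). A quasi-likelihood model with 10 group means and the experiment as a block was fitted to these 20 libraries in edgeR 4.0.16 (R 4.3.3) after TMM normalization, with robust dispersions, with Benjamini-Hochberg adjustment over all genes. The standard error is the log2 fold change divided by the square root of F. CPM and fold changes come from this fit. Values of each experiment used log2 CPM with a prior count of 2. Pairing follows from the replicate numbers, which the study describes as independent experiments. Deviations from group means of libraries with the same number correlated in 45 of 45 pairs of groups (0.42 to 0.73, and 0.658 for MT486-Cre and EV-Cre). Alternatives were DESeq2 1.42.0 with and without the block, no block in edgeR, DESeq2's size factors, no filter, other thresholds, the compared groups alone, and each library left out. The scripts were tested on simulated data.

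The comparison and the gene lists were chosen with earlier results of these data known, and lists were described by counts and medians without a set test. Named genes were the NELF subunits, the 10 largest called increases and decreases that averaged 50 counts or more with no overlap between groups, and up to 4 called members of each list with the largest changes. Some genes that met this rule are not reported here. Other genes are named as members of a list that were or were not called, and were chosen after their values were seen. Gene positions were read from GENCODE vM21 on GRCm38 (mm10).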

Additional observations from a re-analysis of the deposited data

Results flagged for a closer look

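The MT486 minus EV log2 difference was compared between Ad-Cre and Ad-GFP by an interaction term in edgeR, and it differed past the threshold for 370 genes. Among the genes named above, the difference of the differences (Ad-Cre minus Ad-GFP, log2 scale) was positive for Nelfb (3.19), Stk32b (1.97), Fmo1 (1.86), Nrp2 (1.77) and Cnn1 (1.47). Among sterol genes it was positive for Cyp51 (1.53), Msmo1 (1.44), Hmgcs1 (1.42), Fdft1 (1.42), Insig1 (1.42), Stard4 (1.32), Mvk (1.27) and Mvd (1.22). In fatty acid synthesis and mitochondria these were Elovl6 (1.14), Scd1 (1.11), Idh1 (0.939), Scd2 (0.937), Fads2 (0.802), Ndufb11 (0.753), Ndufa4 (0.624) and Atp5o (0.56). Col11a1 (1.17), Ccl5 (1.02), Fbln1 (0.779) and Thbs2 (0.693) were also positive.

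It was negative for Gsta4 (−2.59), Hmox1 (−1.67) and Srxn1 (−1.06) of the antioxidant genes, for Ero1l (−1.84), Trib3 (−1.64), Vegfa (−1.15) and Atf3 (−1.14), and for Fosb (−2.85), Dusp4 (−1.64), Il6 (−1.43), Timp3 (−1.43), Maff (−1.32), Plk2 (−1.1) and Gadd45b (−0.749). For Fosb, MT486-GFP held 15.3 and 2.39 CPM, so its libraries with Ad-GFP lay far apart. No gene of the mitosis and DNA replication lists passed this threshold. No group had the 4 samples needed to look for a single outlying library.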

How the results depend on the processing

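None of the 86 named genes that were called changed direction under the alternatives run. List medians were taken without the block, with DESeq2's size factors, for members of at least 10 CPM and with 1 library left out. Of those below, only that of the kinases changed sign. Without the replicate block, 50 genes (25 higher, 25 lower) were called between MT486-Cre and EV-Cre, 1 with Ad-GFP, 1 for the difference of both comparisons, 1626 for EV-Cre and 442 for MT486-Cre against EV-GFP, and 15 against WT-Cre. DESeq2 called 56 genes with Ad-GFP, and without the block, a choice made after seeing the data, 410 (260 higher, 150 lower) after Cre. The compared groups fitted alone gave 203 with Ad-GFP under the block. Without the block they gave 1 after Cre (1 higher, 0 lower), 0 each with Ad-GFP, for the difference and against WT-Cre, and 239 and 11 for EV-Cre and MT486-Cre against EV-GFP. At a log2 fold change over 1 the counts were 431 (243 higher, 188 lower), 116 for the difference, 1344, 660 and 223 against WT-Cre, and with no minimum size 2470 (1319 higher, 1151 lower), 5935, 3554 and 1365.

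With 1 library left out, the counts ranged from 374 to 966 (higher 197 to 577, lower 166 to 437), with Ad-GFP from 5 to 17, for the difference from 52 to 306 and against WT-Cre from 239 to 711. A lone sample is then assumed to vary like the other groups. List medians then ranged from 0.76 to 1.13 for the mevalonate pathway, 1.00 to 1.73 for mitosis, 0.60 to 0.90 for DNA replication, 0.067 to 0.11 for fatty acid degradation, 0.095 to 0.21 for the citrate cycle, 0.17 to 0.28 for oxidative phosphorylation, 0.020 to 0.17 for collagens and 0.016 to 0.28 for smooth-muscle genes. They ranged from −0.65 to −0.50 for NRF2, −0.52 to −0.43 for ATF4, −0.56 to −0.44 for hypoxia, −0.39 to −0.20 for YAP, −0.47 to −0.38 for ERK feedback, −0.28 to −0.19 for AP-1, −0.045 to 0.0024 for the PI3K and RAF kinases and −0.055 to −0.028 for pausing factors. Medians moved to −0.45 for ERK feedback and −0.039 for pausing factors without the block, to −0.044 for pausing factors with DESeq2's size factors, and among members of at least 10 CPM to 0.25 for the ribosome, −0.12 for metalloproteinases, −0.032 for the kinases and −0.39 for ERK feedback.

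In the description across experiments, a threshold of 0.5 gave medians of 0.30 and 0.30 for genes lower with Cre in experiments 1 and 2 and −0.32 and −0.32 for those higher, and a minimum of 200 counts 0.54, 0.55, −0.58 and −0.56. The causes of these changes were not tested.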

Other observations

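Some genes differed between the MT486 and EV populations without Cre. With Ad-GFP, edgeR called 4 genes higher and 18 lower in MT486. Those lower included Ndn, Dlk1 and Peg3, with log2 fold changes of −1.23, −1.06 and −0.83 with Ad-GFP, and −0.98, −1.12 and −0.45 after Cre, where Peg3 was not called. Wnt5a, a secreted ligand, was lower by −1.36 and −0.91, and the interferon-induced Oas1g by −1.66 and −0.57. Higher with either virus were the RNA-binding protein genes Rbm20 (1.06 and 1.44) and Igf2bp3 (0.67 and 0.92) and the cartilage collagen gene Col2a1 (2.06 and 3.55). These genes were chosen after their values were seen. Each construct stands for a single selected population, so the construct and the population cannot be told apart.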
